A study of Mus musculus with 10 samples.

Results

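Cathepsins are proteases that mostly work inside lysosomes. The values of 10 cathepsin genes (Ctsa, Ctsb, Ctsc, Ctsd, Ctsf, Ctsh, Ctsk, Ctsl, Ctss and Ctsz) in the abdominal aorta are described here. The members were chosen by name, as all probe sets annotated to exactly 1 of these symbols, and they make up 22 of 45037 probe sets and 10 of 18193 genes on a genome-wide GeneChip mouse array. Aortas came from 6 KCASP1Tg mice, which carry human caspase-1 driven by the keratin 14 promoter in epidermal keratinocytes and have spontaneous dermatitis, and from 4 wild-type (WT) littermates on the C57BL/6 background. All mice were female and 16 weeks old by the methods and labels, and 1 array was hybridised per mouse. As the transgene is driven in skin, the aorta itself is not the tissue that it targets. The tissue is labelled as dechorionated abdominal aorta, and its RNA held transcripts of smooth muscle, fat, fibroblasts and blood cells together.

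Signals are MAS5 intensities per probe set, with each array scaled to the same trimmed mean. The median signal was 129 to 156 on the KCASP1Tg arrays and 129 to 143 on the WT arrays. The 26242 probe sets that reached a signal of 100 on 4 or more arrays were tested. The smooth muscle list had a mean log2 signal of 10.37 to 12.23 in KCASP1Tg mice and 11.79 to 12.11 in WT mice, and the adipocyte list 12.21 to 13.40 in KCASP1Tg mice and 12.41 to 12.96 in WT mice. KCASP1Tg 4 stood apart from the other mice, with the highest mean of the macrophage, neutrophil, T cell and B cell marker lists and the lowest mean of the smooth muscle list. The mean log2 signal of the liver list was 5.83 to 8.87 in KCASP1Tg mice and 8.22 and 10.1 in WT 2 and WT 4, but 14.7 in WT 1 and 13.4 in WT 3. Heart muscle transcripts were high in KCASP1Tg 1, KCASP1Tg 2 and WT 4 (12.3, 11.5 and 13.4). The neutrophil list was 8.90 to 12.1 in KCASP1Tg mice and 6.09 to 6.30 in WT mice.

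Most cathepsins are made as inactive precursors, sorted to the lysosome through mannose 6-phosphate, and activated there by cleavage at acid pH. Cathepsins B, C, F, H, K, L, S and Z are cysteine proteases, cathepsin D is an aspartic protease and cathepsin A is a serine carboxypeptidase. Cystatins and stefins bind and block the cysteine cathepsins. In arteries, cathepsins K, L and S are known as enzymes that can cleave elastin and collagen of the wall when they are secreted, and macrophages and smooth muscle cells are among their known sources.

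Ctsk and Ctss lie close together on chromosome 3, with 1 annotated gene, Gm40096, between them, and they carried the opposed differences of the set. The promoter windows of both are therefore shown, together with those of Ctsa and Ctsd, the members whose windows hold the extended E-box. Each window runs from 250 bases before to 50 bases after the annotated start site, 5′ to 3′ on the gene's strand (RefSeq, GRCm38.p6), with motif matches in capitals. Ctss lies at chr3:95526536-95526835 (+), Ctsk at chr3:95498960-95499259 (+), the window of the second start site of Ctsa at chr2:164833523-164833822 (+) and Ctsd at chr7:142387778-142388077 (-).
Ctss: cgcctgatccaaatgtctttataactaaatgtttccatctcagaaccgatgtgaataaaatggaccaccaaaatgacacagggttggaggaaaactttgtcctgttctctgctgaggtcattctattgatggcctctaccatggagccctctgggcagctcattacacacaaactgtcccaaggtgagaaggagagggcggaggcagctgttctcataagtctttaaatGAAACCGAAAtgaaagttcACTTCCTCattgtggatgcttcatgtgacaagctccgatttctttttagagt
Ctsk: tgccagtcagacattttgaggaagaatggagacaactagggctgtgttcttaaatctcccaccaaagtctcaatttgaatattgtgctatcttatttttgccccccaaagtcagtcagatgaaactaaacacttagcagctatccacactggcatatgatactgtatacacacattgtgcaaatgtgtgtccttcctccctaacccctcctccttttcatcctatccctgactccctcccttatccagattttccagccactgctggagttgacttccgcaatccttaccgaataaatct
Ctsa: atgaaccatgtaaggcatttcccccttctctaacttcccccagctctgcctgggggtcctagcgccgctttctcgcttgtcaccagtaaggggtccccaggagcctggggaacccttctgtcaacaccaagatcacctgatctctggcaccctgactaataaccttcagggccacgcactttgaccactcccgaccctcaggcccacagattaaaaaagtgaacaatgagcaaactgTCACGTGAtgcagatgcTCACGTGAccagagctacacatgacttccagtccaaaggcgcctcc
Ctsd: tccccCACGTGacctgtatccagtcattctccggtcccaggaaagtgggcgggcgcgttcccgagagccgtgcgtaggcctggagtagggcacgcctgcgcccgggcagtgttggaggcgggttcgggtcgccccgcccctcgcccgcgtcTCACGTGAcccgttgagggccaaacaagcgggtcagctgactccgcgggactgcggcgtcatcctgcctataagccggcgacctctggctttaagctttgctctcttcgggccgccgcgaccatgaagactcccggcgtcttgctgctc
The motifs searched on both strands were CACGTG (E-box), TCACGTGA (an extended E-box of the type bound by TFEB, which holds CACGTG within it), an interferon-response type motif (GAAA and GAAA with any 2 bases between them) and GAGGAAGT (PU-box type). With the start site counted as 0, the Ctss window held the interferon-response type motif from -21 to -12 and GAGGAAGT on the opposite strand from -2 to 5. The Ctsk window held none of the 4 motifs. TCACGTGA stood at -13 to -6 and at 4 to 11 in the Ctsa window and at -99 to -92 in that of Ctsd, and Ctsd had a further CACGTG at -245 to -240.

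The promoter table held 8 of the 10 members with 9 windows, all but Ctsb and Ctsh. CACGTG occurred in 4 members (Ctsa, Ctsd, Ctsf at -79 to -74 and Ctsl at -236 to -231). It is found in 7.15% of all 32851 windows, and 8.09% of 27025 genes have it in at least 1 window. TCACGTGA is found in 0.974% of all windows, the interferon-response type motif in 3.44% and GAGGAAGT in 3.2%. Ctsc held GAGGAAGT on the opposite strand at -151 to -144, and the Ctsz window and that of the first start site of Ctsa had no match. These matches are descriptions of the letters and show no binding.

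**Figure D1:**
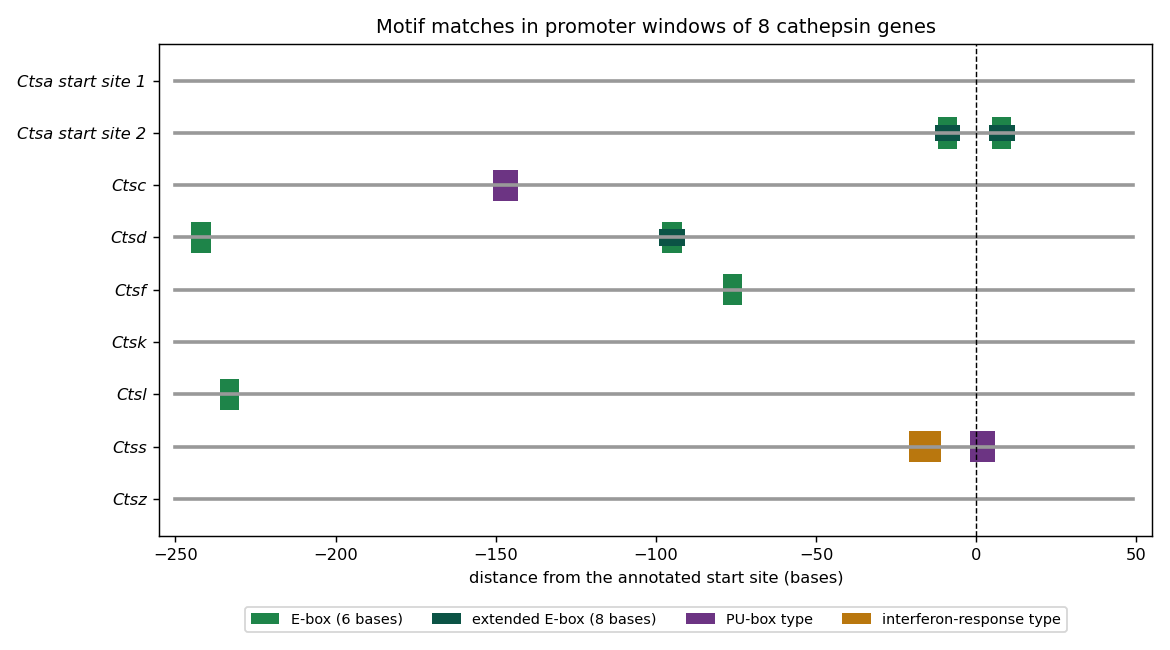
Motif matches in the 9 promoter windows of 8 cathepsin genes, by distance in bases from the annotated start site (dashed line). E-boxes lie in the windows of Ctsa, Ctsd, Ctsf and Ctsl, the interferon-response type motif lies in that of Ctss alone among these windows, and Ctsk has no match.

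Of the 22 cathepsin probe sets 20 were tested, and all 10 genes had a tested main probe set, the one with the highest mean signal of the gene. At an adjusted p under 0.05 (limma, Benjamini-Hochberg over the 26242 probe sets), 0 cathepsin probe sets were called higher and 0 lower in KCASP1Tg mice, where 0.0686% of all tested probe sets were called higher and 0% lower. Before adjustment, p was under 0.05 for 2 that were higher (Ctss and Ctsz) and 2 that were lower (Ctsk and 1 of the probe sets of Ctsh), where this held for 4.52% and 3.42% of all tested probe sets. The KCASP1Tg and WT signals did not overlap for 1 gene that was higher (Ctss) and 1 that was lower (Ctsk), against 1.98% and 0.949% of all tested probe sets, and they overlapped for the other 8 genes. Main probe sets had a median log2 fold change of 0.17, with 7 positive and 3 negative, whereas the median over all 12295 tested genes was 0.00044 with 50.2% positive.

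**Figure D2:**
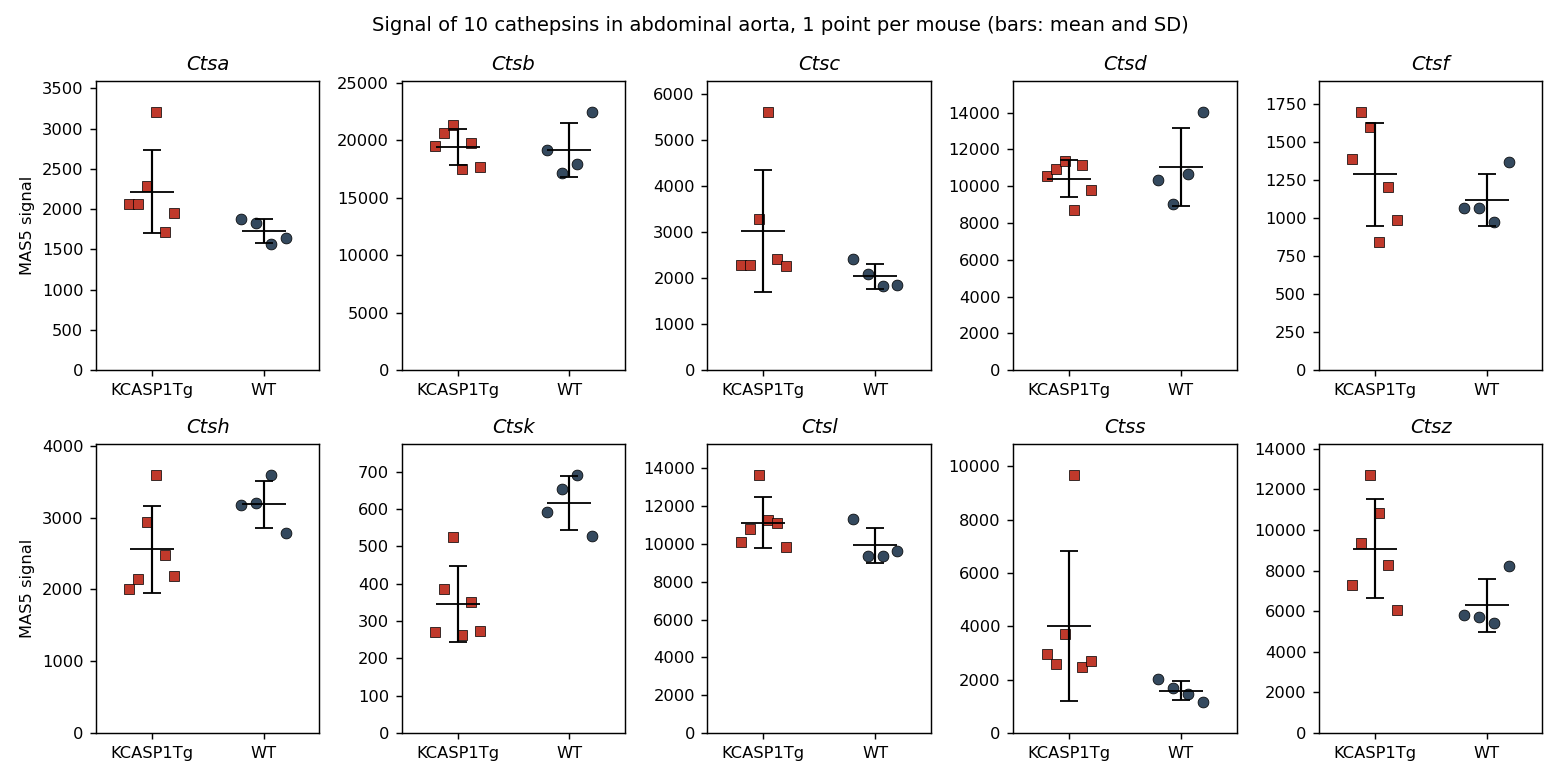
MAS5 signal (linear axis from 0) of the main probe set of each cathepsin gene, 1 point per mouse, in KCASP1Tg (squares, n = 6) and WT (circles, n = 4). Lines give the mean and SD. All KCASP1Tg points lie above the WT points for Ctss and below them for Ctsk, and the highest Ctss point, at 9679.8, is KCASP1Tg 4.

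Ctss encodes cathepsin S, an elastin-cleaving protease that stays active at neutral pH and trims the invariant chain of MHC class II in antigen-presenting cells. Its signal was 2959.5, 2596, 3707, 9679.8, 2459 and 2678 in KCASP1Tg 1 to 6 and 2011, 1672, 1451 and 1173 in WT 1 to 4. Each KCASP1Tg mouse was above each WT mouse, and KCASP1Tg 4 lay far above the other KCASP1Tg mice. The means were 4013 ± 2811 (SD, n = 6) in KCASP1Tg aorta and 1577 ± 354 (SD, n = 4) in WT aorta. The fitted difference was 2.26-fold (log2 fold change 1.18, standard error 0.36, 95% interval 0.37 to 1.98), and it was not called (adjusted p = 0.421 from limma). The unadjusted p of the exact Mann-Whitney test (two-sided) was 0.00952, the smallest possible with 6 against 4 mice. Without KCASP1Tg 4 the log2 fold change was 0.88 (adjusted p = 0.108 from limma).

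Ctsk encodes cathepsin K, the collagenase by which osteoclasts resorb bone matrix, which is also made by activated fibroblasts and smooth muscle cells. Its signal was 270.1, 386, 525, 263, 350.0 and 274 in KCASP1Tg 1 to 6 and 591, 652, 692 and 527 in WT 1 to 4. All KCASP1Tg mice were below all WT mice, although KCASP1Tg 3 and WT 4 almost met. The means were 345 ± 101 (SD, n = 6) in KCASP1Tg aorta and 616 ± 72.0 (SD, n = 4) in WT aorta. The fitted difference was 0.545-fold (log2 fold change -0.88, standard error 0.20, 95% interval -1.32 to -0.43), and it was not called (adjusted p = 0.206 from limma), and the unadjusted p of the exact Mann-Whitney test was again 0.00952. Of 23 alternatives it passed only with array weights (log2 fold change -0.95, adjusted p = 0.0231 from limma).

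Ctsz and Ctsc had the next largest positive differences. Ctsz encodes cathepsin Z (also called X), a carboxypeptidase found largely in monocytes and macrophages. Its main probe set read 7295, 9336, 12721, 10812, 8249.9 and 6062 in KCASP1Tg 1 to 6 and 5789.5, 5698, 5405 and 8244 in WT 1 to 4. KCASP1Tg 1 and KCASP1Tg 6 lay within the WT range, whose upper end was WT 4, and KCASP1Tg 5 lay just above it. Its log2 fold change of 0.51 (SE 0.21) had an adjusted p of 0.587 in limma. The other probe sets of Ctsz, 1417870_x_at and 1417869_s_at, gave 0.47 and 0.38. Ctsc encodes cathepsin C, or dipeptidyl peptidase I, which activates the serine proteases of neutrophil, mast cell and cytotoxic lymphocyte granules. It read 2286, 2273, 3280.3, 5604, 2418 and 2251 in KCASP1Tg 1 to 6 and 2406, 2093, 1819.9 and 1839.8 in WT 1 to 4. KCASP1Tg 3 and KCASP1Tg 4 were high, whereas 3 of the other KCASP1Tg mice lay below WT 1. The log2 fold change was 0.48 (95% interval -0.08 to 1.05, adjusted p = 0.70 from limma) and 0.29 without KCASP1Tg 4. A dimmer probe set of Ctsc, 1437939_s_at, gave 0.03, and another, 1446834_at, was too dim to be tested.

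Ctsa and Ctsh had smaller differences of opposite sign. Ctsa encodes cathepsin A, which protects beta-galactosidase and neuraminidase in a lysosomal complex. It read 2061, 2067, 2289, 3205, 1719 and 1957 in KCASP1Tg 1 to 6 and 1875, 1824, 1568 and 1644 in WT 1 to 4, so that only KCASP1Tg 5 fell within the WT range. Its log2 fold change of 0.33 (SE 0.16) had an adjusted p of 0.668 in limma and was 0.22 without KCASP1Tg 4. A dimmer probe set, 1458466_at, gave 0.0012. Ctsh encodes cathepsin H, an aminopeptidase. It read 2008, 2141, 2937, 3597, 2476 and 2187 in KCASP1Tg 1 to 6 and 3169, 3198, 3587 and 2781 in WT 1 to 4. KCASP1Tg 4 was the highest mouse and 4 of the 6 KCASP1Tg mice lay below every WT mouse. The log2 fold change was -0.34 (95% interval -0.72 to 0.04, adjusted p = 0.678 from limma), and the probe set 1443814_x_at, whose suffix marks probes that may bind related sequences, gave -0.38 (adjusted p = 0.615).

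For Ctsb, Ctsd, Ctsf and Ctsl the main probe set differed by less than 0.25 on the log2 scale. Ctsb encodes cathepsin B, an endopeptidase and carboxydipeptidase of lysosomes. It read from 17503 to 21362 (median 19643) in KCASP1Tg mice and 19184, 17115, 17904 and 22458 in WT 1 to 4, with a log2 fold change of 0.02 (95% interval -0.23 to 0.27), and its other 4 probe sets gave -0.05 to 0.29. Ctsd encodes cathepsin D, the main aspartic protease of lysosomes. It read from 8692 to 11359 (median 10736) in KCASP1Tg mice and 10316, 9059, 10693 and 14037 in WT 1 to 4 (log2 fold change -0.07, 95% interval -0.37 to 0.23). WT 4 was the highest mouse for both genes, and without it their log2 fold changes were 0.10 for Ctsb and 0.05 for Ctsd. Without WT 2 they were -0.03 for Ctsb and -0.16 for Ctsd.

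Ctsl encodes cathepsin L, an endopeptidase that also degrades elastin. It read from 9849.9 to 13661 (median 10944) in KCASP1Tg mice and 11317, 9358, 9379 and 9618 in WT 1 to 4, where WT 1 was above the other WT mice. Its log2 fold change was 0.16 (95% interval -0.10 to 0.42) and 0.10 without KCASP1Tg 3, and the dimmer probe set 1457724_at gave -0.16. Ctsf encodes cathepsin F, which can also process the invariant chain in macrophages. It read from 846 to 1700.2 (median 1299) in KCASP1Tg mice and 1066, 1067, 978 and 1373 in WT 1 to 4 (log2 fold change 0.17, 95% interval -0.29 to 0.63). With 1 mouse left out this ran from 0.08 (without KCASP1Tg 2) to 0.28 (without KCASP1Tg 4). Its probe set 1449794_x_at was too dim to be tested. KCASP1Tg 4 held the highest signal of all mice for 4 of the 10 genes (Ctsa, Ctsc, Ctsh and Ctss) and the lowest for 3 (Ctsd, Ctsf and Ctsk).

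**Figure D3:**
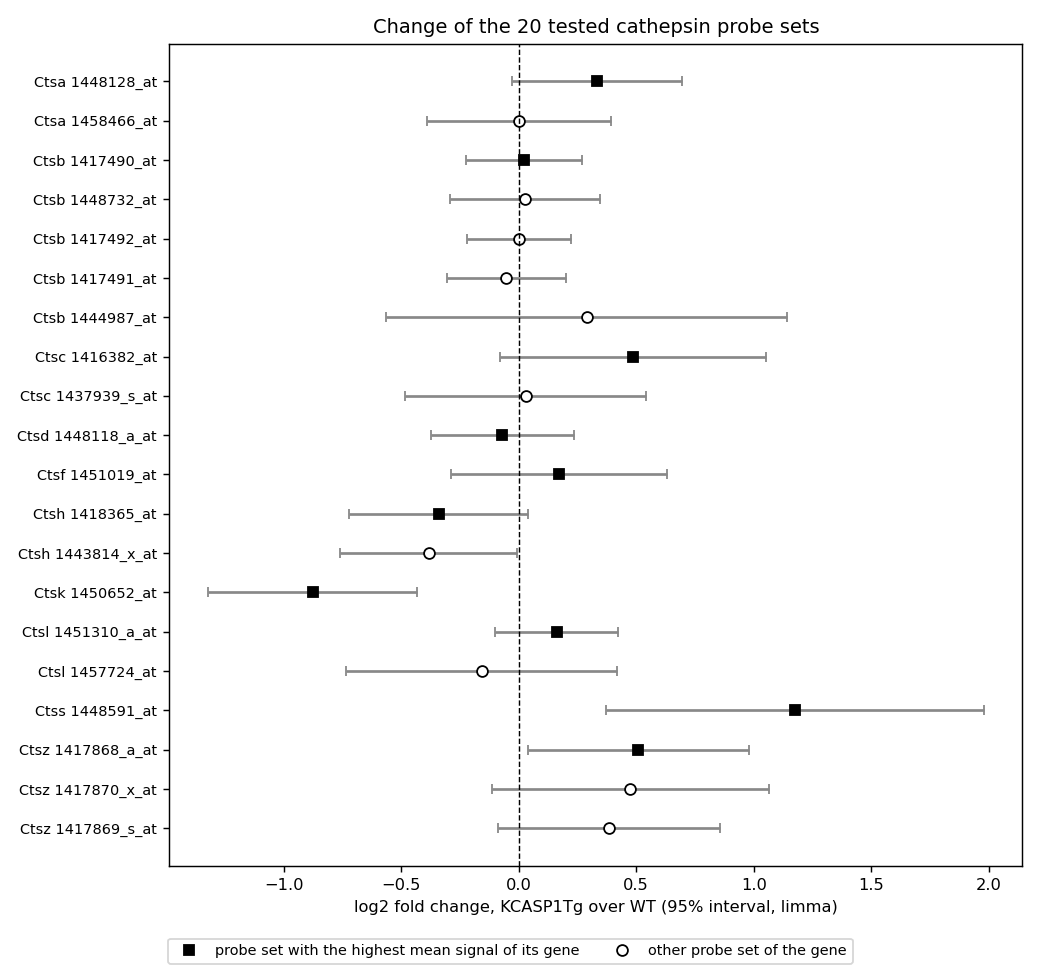
Log2 fold change, KCASP1Tg over WT, of each tested cathepsin probe set, with its 95% interval from limma. Filled squares are the main probe sets and open circles the others, and the intervals of 16 of the 20 span 0.

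Many cathepsins are abundant in macrophages, so the members were set beside a list of macrophage markers. In bulk tissue, more cells of a type and more RNA per cell cannot be told apart. Of 15 macrophage genes 13 were tested. The log2 fold change was positive in 13 of them (median 0.76), and 0 were called. The mean log2 signal of the list was 9.38 to 11.05 in KCASP1Tg mice and 8.83 to 9.61 in WT mice, a difference of the group means of 0.89. Marco had the largest log2 fold change of the list (2.93, standard error 1.44). It read 4025 in KCASP1Tg 4 and 191 in WT 1, but 3.87 in WT 3 and 6.39 in WT 4, near the floor. The list mean and the correlations with it were not computed without Marco. Some other lists of blood cells differed by more, whereas the dendritic cell list (-0.02) and the mast cell list (0.28) differed by less. The mean was higher in KCASP1Tg mice by 3.57 for the neutrophil list, by 3.45 for the red blood cell list (8.58 to 11.0 in KCASP1Tg mice and 4.71 to 7.97 in WT mice), by 1.92 for the B and plasma cell list (8.78 to 12.5 in KCASP1Tg mice and 7.22 to 9.15 in WT mice) and by 1.06 for the T and NK cell list (6.69 to 9.91 in KCASP1Tg mice and 6.17 to 7.0 in WT mice). These list means cover tested genes only. Camp, Ltf and Mmp8 (neutrophil), Slc4a1 (red blood cell) and Nkg7 (T and NK cell) read under 100 in every WT mouse. They passed the signal filter through KCASP1Tg mice alone, which favours a positive difference. Only 2 of the 6 red blood cell genes were tested (Slc4a1 and Alas2). Hba-a1 was below the filter and dim in every mouse, with a mean of 16.4 in WT and 6.79 in KCASP1Tg mice. WT 4 read 43.3, and the other mice read from 1.80 to 11.9. Of the macrophage markers Lyz2, the lysozyme of myeloid cells and the brightest, read from 7854 to 23670 in KCASP1Tg mice and from 4318 to 7035 in WT mice, without overlap. Trem2, the marker below the filter, averaged 30.5 in KCASP1Tg mice and 15.4 in WT mice.

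Across the 10 mice Ctss, Ctsc and Ctsa were the members that followed the macrophage list most closely. No other marker list was correlated with the members. KCASP1Tg 4 was also the highest mouse of the neutrophil, T and NK cell, and B and plasma cell lists. Whether the relation is particular to macrophage markers was therefore not tested. Pearson's r with the list mean was 0.93 for Ctss (permutation p = 0.0001; Spearman's rho 0.89, p = 0.0013), 0.93 for Ctsc (permutation p = 7e-05; rho 0.89, p = 0.0013) and 0.92 for Ctsa (permutation p = 0.00028; rho 0.92, p = 0.00065). It was 0.80 for Ctsz (permutation p = 0.0048; rho 0.83, p = 0.0044) and 0.74 for Ctsl (permutation p = 0.014; rho 0.78, p = 0.011). These 5 genes are among 10 that were computed, and the p-values are not adjusted. The permutations ran over all 10 mice without regard to genotype, so a difference between the genotypes also enters these p-values. Without KCASP1Tg 4 and WT 3, the mice farthest from the median of the list, r was 0.86 for Ctss, 0.91 for Ctsc, 0.80 for Ctsa, 0.73 for Ctsz and 0.87 for Ctsl.

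Within the 6 KCASP1Tg mice alone, r was 0.89 for Ctss (exact permutation p = 0.019), 0.93 for Ctsc (exact permutation p = 0.013), 0.88 for Ctsa (exact permutation p = 0.0097), 0.83 for Ctsz (exact permutation p = 0.036) and 0.61 for Ctsl (exact permutation p = 0.19). By rank, rho was 0.71 for Ctss (exact permutation p = 0.14), 0.77 for Ctsc (exact permutation p = 0.10), 0.94 for Ctsa (exact permutation p = 0.017), 0.89 for Ctsz (exact permutation p = 0.033) and 0.77 for Ctsl (exact permutation p = 0.10), so the Ctss and Ctsc relations within the KCASP1Tg mice did not pass by rank. Ctsh had an r of 0.04 over all 10 mice (permutation p = 0.92). Within the KCASP1Tg mice its r was 0.89 (exact permutation p = 0.024) and its rho 0.54 (exact permutation p = 0.30). For Ctsb, Ctsd, Ctsf and Ctsk the pooled r was 0.04, -0.37, 0.06 and -0.54 (permutation p = 0.92, 0.29, 0.86 and 0.11). For Ctsk rho was -0.70 (permutation p = 0.031), but its r was -0.14 without KCASP1Tg 4 and WT 3. Within the KCASP1Tg mice the r of Ctsk was 0.13 (exact permutation p = 0.78) and its rho -0.03 (exact permutation p = 1.0). The part of macrophage and other blood cell transcripts in the cathepsin differences was not tested.

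**Figure D4:**
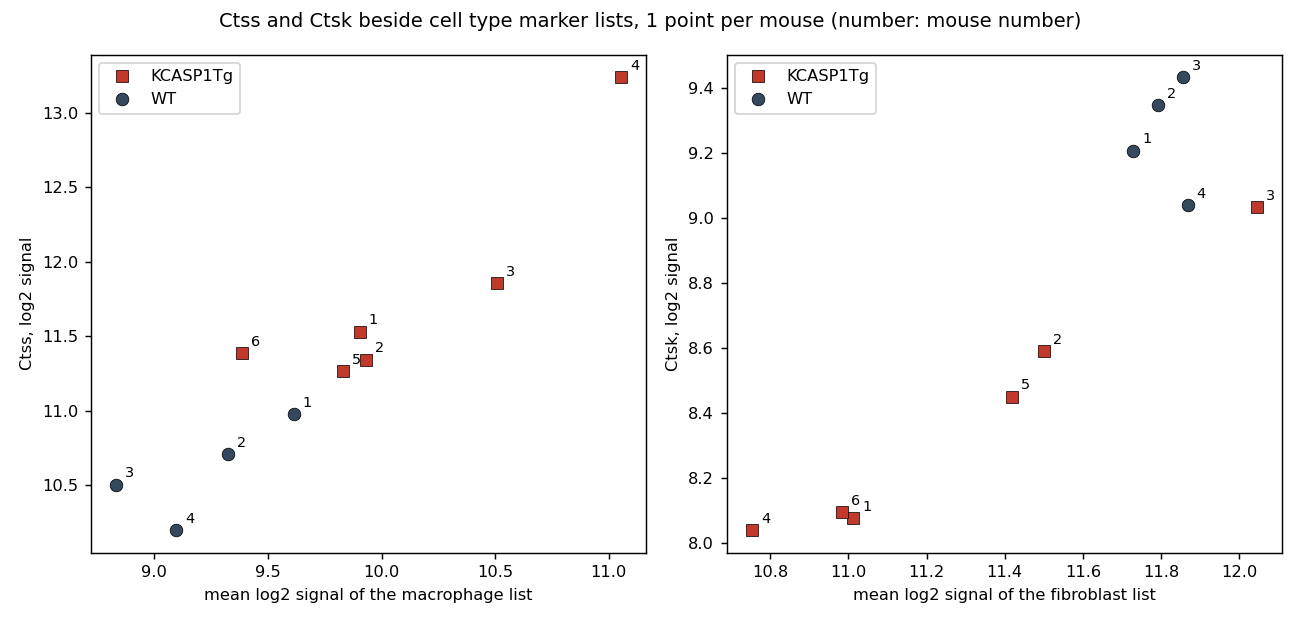
Left, log2 signal of Ctss against the mean log2 signal of the macrophage list; right, log2 signal of Ctsk against that of the fibroblast list, 1 numbered point per mouse (squares, KCASP1Tg; circles, WT). KCASP1Tg 4 is at the top right of the left panel and at the lower left of the right panel, and KCASP1Tg 3, with a fibroblast mean of 12.05, has the highest Ctsk of the KCASP1Tg mice.

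The genes whose signals were most like that of Ctsk over the 10 arrays were Dpt (dermatopontin, r = 0.97), Lum (lumican, r = 0.96), Abi3bp (r = 0.95), Mmp2 (gelatinase A, r = 0.94) and Dct (dopachrome tautomerase, r = 0.93). Dermatopontin and lumican are proteins of the collagen matrix, and both genes are also in the fibroblast marker list. Dpt read 2203, 3029, 5738, 2153, 3509 and 1992 in KCASP1Tg 1 to 6 and 4969.8, 6125, 6291 and 4976.5 in WT 1 to 4. As with Ctsk, KCASP1Tg 3 was the highest KCASP1Tg mouse, but for Dpt it lay within the WT range. The log2 fold changes of these 5 genes were -0.95 for Dpt, -0.93 for Lum, -0.56 for Abi3bp, -0.57 for Mmp2 and -0.86 for Dct, with adjusted p from 0.363 to 0.527 in limma. The genes were chosen by their r with Ctsk over both genotypes, which favours a negative sign. All 6 fibroblast markers had a negative log2 fold change (median -0.49) and 0 were called. Their mean was 10.75 to 12.05 in KCASP1Tg mice and 11.73 to 11.87 in WT mice, with 5 of the KCASP1Tg mice below every WT mouse, and their part in the Ctsk difference was not tested.

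The inhibitors were next set beside the cysteine cathepsins. Cst3 encodes cystatin C, the main extracellular inhibitor of these enzymes. It read from 16072 to 21716 in KCASP1Tg mice and from 17327 to 21023 in WT mice (log2 fold change 0.09, adjusted p = 0.933 from limma). For Cstb, or stefin B, an inhibitor inside cells, it was 0.13 (adjusted p = 0.849). Of the other 10 genes of the list, 5 were too dim to be tested and 5 were not analysed here. When the log2 signal of Cst3 was subtracted in each mouse, the genotype difference was 1.08 for Ctss and -0.97 for Ctsk (exact two-sided permutation p = 0.00952 each). It was -0.43 for Ctsh, 0.42 for Ctsz and 0.39 for Ctsc (exact permutation p = 0.143, 0.105 and 0.257), and between -0.07 and 0.08 for Ctsb, Ctsf and Ctsl. These are 8 differences with unadjusted p-values. The Ctsh difference was -0.59 without KCASP1Tg 4, and the Ctsz difference was 0.52 without KCASP1Tg 6. Each was then under an unadjusted p of 0.05 in the exact permutation test. These were the only 2 of 104 alternative values that changed sides of 0.05. Without KCASP1Tg 4 the difference was smaller for Ctsc (0.14) and Ctss (0.73).

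None of the listed genes that process, sort or accompany cathepsins was called. Lgmn encodes legumain, which cleaves the precursors of several cathepsins, and its log2 fold change was 0.34 (adjusted p = 0.756 from limma). Igf2r, a receptor that carries mannose 6-phosphate tagged enzymes to the lysosome, read from 1873 to 2067 in KCASP1Tg mice and from 2219 to 2472 in WT mice. The groups did not overlap, but the difference was small (log2 fold change -0.24, standard error 0.09, adjusted p = 0.50). Of the 7 tested genes of maturation and sorting 5 were negative, with a median of -0.09. Glb1 and Neu1, the beta-galactosidase and neuraminidase bound by cathepsin A, had log2 fold changes of 0.12 and 0.16.

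Proteins that cathepsins C and S act on were listed next. Of 10 granule serine proteases 5 were tested and 5 were positive (median log2 fold change 0.54, 0 called). Gzmb, granzyme B, which cathepsin C activates, read from 48.4 to 256 in KCASP1Tg mice and from 17.8 to 63.7 in WT mice (log2 fold change 1.35, adjusted p = 0.477 from limma). Gzmb passed the signal filter through KCASP1Tg mice alone, which favours a positive sign. Cma1, a mast cell chymase, had the smallest log2 fold change, 0.16. Cd74, the invariant chain, read 4390.2, 4084, 4985, 17185, 4162 and 4397 in KCASP1Tg 1 to 6 and 4246, 3469, 2993 and 2914 in WT 1 to 4. KCASP1Tg 4 again stood far above the rest. Its log2 fold change was 0.71 (adjusted p = 0.704), and the 5 tested genes of the invariant chain list were all positive (median 0.47, 0 called), with the smallest value, 0.34, in H2-Aa, a chain of an MHC class II molecule. For each of the 5 genes KCASP1Tg 4 was the highest mouse. H2-Aa read 17556 in KCASP1Tg 4, from 5327 to 6547 in the other KCASP1Tg mice and from 4529 to 6682 in WT mice, and the other KCASP1Tg mice thus lay within the WT range.

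The other lysosomal lists had median log2 fold changes of 0.04 for hydrolases, 0.01 for membrane and cofactor genes, -0.03 for the proton pump and 0.19 for regulators, against 0.17 for the cathepsins. Among 26 lysosomal hydrolases, 19 were positive, and their log2 fold changes ranged from -0.19 (Acp2, a lysosomal acid phosphatase) to 0.53 (Pla2g15, a lysosomal phospholipase; adjusted p = 0.537 from limma). Of 14 subunits of the proton pump that acidifies the lysosome 4 were positive, with a range of -0.16 (Atp6v0a1) to 0.18 (Atp6v1h) and the smallest p in Atp6ap1 (log2 fold change 0.17, adjusted p = 0.802). Of 12 membrane and cofactor genes 6 were positive, with a range of -0.17 (Mcoln1, a lysosomal cation channel) to 1.26 (Laptm5). Laptm5, a lysosomal membrane protein of blood cells, read from 825 to 4783 in KCASP1Tg mice and from 436 to 593 in WT mice without overlap (adjusted p = 0.496). Tfeb, Tfe3 and Mitf, which encode related transcription factors of lysosomal genes, had log2 fold changes of 0.26, 0.19 and -0.02. In each of these lists 0 genes were called in either direction.

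**Figure D5:**
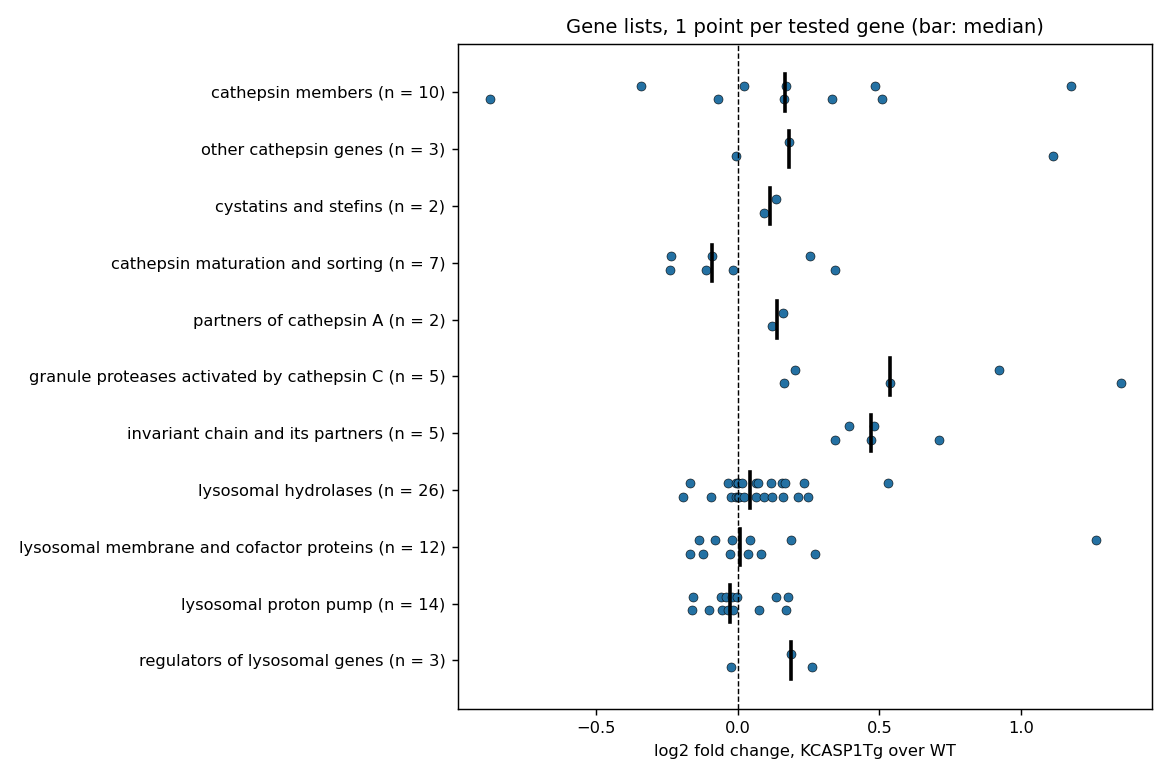
Log2 fold change, KCASP1Tg over WT, of each tested gene (1 point, main probe set) in the cathepsins and in the lists set beside them, with the median as a bar. The cathepsins run from -0.88 (Ctsk) to 1.18 (Ctss), while the hydrolases and proton pump genes lie between -0.19 and 0.53.

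Of 12 further cathepsin genes 3 were tested. Ctsw, a cathepsin of cytotoxic lymphocytes, read from 39.5 to 910.0 in KCASP1Tg mice and from 25.5 to 111 in WT mice (log2 fold change 1.11, adjusted p = 0.786 from limma), with the highest value in KCASP1Tg 4. Ctse and Ctso had log2 fold changes of 0.18 and -0.01. The 9 others were too dim to be tested, among them 8 genes related to cathepsin L that are known from the placenta of rodents. The last, Ctsg, a serine protease of neutrophil granules, read 379.96 in KCASP1Tg 4, at most 29.7 in the other KCASP1Tg mice and at most 8.96 in WT mice.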

How the data were processed

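Abdominal aorta RNA of 6 KCASP1Tg and 4 WT mice was hybridised to genome-wide GeneChip mouse arrays, 1 per mouse. The deposited values are signal intensities per probe set that the authors computed with MAS5 and scaled to a trimmed mean of 500. With 2% of the probe sets left out at each end, that mean was 500 on each array here. The methods give n = 8 mice, and all 10 arrays of the labels were used. No batch is given in the sources used here.

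The table holds 45101 probe sets, of which 64 controls were left out. Of the rest, 34945 have 1 gene symbol in the platform annotation (34741 updated through gene identifiers, 204 kept as given), 932 several and 9160 none, and the last 2 kinds were not named. As in the methods, signals were floored at 1 and log2-transformed. Probe sets that reached a signal of 100 on 4 or more arrays were fitted by genotype with limma 3.58.1 (R 4.3.3), and p-values were adjusted by Benjamini-Hochberg over all of them. A gene stands for its probe set with the highest mean signal. The exact Mann-Whitney test, named in the methods for 2 groups, was run as an alternative. Correlations over 10 mice used 100000 permutations that ignored genotype, so a genotype difference also enters their p-values. The mouse was the unit of each test. All tests are two-sided. Differences from Cst3 and correlations are given with unadjusted p-values only. The number of arrays limits the precision.

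The members and the gene lists were chosen with earlier results of these data known. Named are all members, of each pathway list the gene with the smallest p and those with the largest and smallest log2 fold change, of the macrophage markers the brightest, Cst3, Lgmn, Glb1, Neu1, and the 5 genes most like the member with the smallest p; other names were chosen after their values were seen. Alternatives covered the floor, the transformation, the filter, normalization, an intensity trend, array weights, the test, a replicate block, each mouse left out, and averaging the probe sets of a gene. The fit was run on simulated, normally distributed data, where the calling of added changes was required only for the largest of them. This check set no requirement on calling differences of the size seen for Ctss and Ctsk. Figures were drawn with matplotlib 3.10.9.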

Additional observations from a re-analysis of the deposited data

Results flagged for a closer look

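In each genotype the highest or lowest mouse was compared with the rest of its group by Dixon's criterion at the 95% level on the log2 signals of the tested cathepsin probe sets. Of 40 groups checked 5 held a mouse far from the others, where chance gives about 1 in 20. The groups are not independent, as they hold several probe sets of some genes in the same mice. The rate is therefore only a rough guide. KCASP1Tg 4 had a Ctss signal of 9679.8, against 2459 to 3707 in the other KCASP1Tg mice. This mouse also had the highest macrophage list mean (11.05, against 9.38 to 10.51 in the other KCASP1Tg mice), and the part of those transcripts was not tested.

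WT 4 accounted for 3 of the others. It read 16338 on the probe set 1448732_at of Ctsb (12368 to 12838 in the other WT mice), 8244 on the probe set 1417868_a_at of Ctsz (5405 to 5789.5) and 1653 on the probe set 1443814_x_at of Ctsh (2152 to 2198). In WT 4 the mean of the heart muscle list was 13.40, against 3.59 to 5.38 in the other WT mice, and its part in these signals was not tested. Without WT 4 the log2 fold change of Ctsz was 0.65. WT 1 read 11317 for Ctsl, against 9358 to 9618 in the other WT mice, and without it the log2 fold change of Ctsl was 0.23.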

How the results depend on the processing

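Over 23 alternatives 0 cathepsin probe sets were called higher, and 0 were called lower except with array weights, where 1 (Ctsk) was. No gene of the pathway lists was called in any of them. Over all 24 alternatives the log2 fold change of Ctss ran from 0.79 to 1.40 (adjusted p 0.0995 to 1) and that of Ctsk from -1.01 to -0.78 (adjusted p 0.0231 to 1). With 1 mouse left out at a time they ran from 0.88 to 1.30 and from -1.01 to -0.81. The sign turned for Ctsb in 5 and for Ctsd in 3 alternatives and for none of the other 8 genes. Without both KCASP1Tg mice highest in macrophage transcripts Ctss was at 0.79 and Ctsk at -0.95, without both WT mice highest in liver transcripts at 1.32 and -0.81, and without the 3 mice highest in heart muscle transcripts at 1.21 and -0.92; these 3 settings were chosen after seeing the data. The mean of a gene's tested probe sets gave 0.17 for Ctsa, 0.26 for Ctsc and 0.0021 for Ctsl. Of 104 alternative values of the differences from Cst3, 102 kept their side of an unadjusted p of 0.05.

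The background moved more. Of all probe sets, 18 were called higher and 0 lower. With array weights 204 were higher and 63 lower, by the exact Mann-Whitney test 0 were higher, and in the settings chosen after seeing the data 0 were higher without the liver-rich mice, 2 without the heart-rich mice and 48 without the macrophage-rich mice, where 6 were lower. Lower calls were 1 with a floor of 16 or quantile normalization, 2 with log2(signal + 50) or no filter, and 3 with a filter at 200 or an intensity trend. With each mouse left out in turn, 10 (without KCASP1Tg 1) to 61 (without KCASP1Tg 4) were higher and 0 to 8 lower. The cause was not tested. With the replicate number as a block 0 were higher, Ctss was at 1.40 (adjusted p = 0.844 from limma) and Ctsk at -0.82 (adjusted p = 0.717). Deviations of same-numbered mice correlated at 0.11, -0.31, -0.43 and -0.33, and no WT mouse correlated best with the KCASP1Tg mouse of its number. This gave no sign that the numbers pair the mice. It cannot exclude pairing, as liver and heart muscle transcripts also differed from mouse to mouse.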

Other observations

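The genes most like Ctss over the 10 arrays were chosen after its values were seen. They were Fcer1g, the signalling chain of Fc receptors (r = 0.99), Fyb, an adaptor of T cells and myeloid cells (r = 0.99), Lpxn, which encodes leupaxin (r = 0.99), Itgb2, the beta chain of leukocyte integrins (r = 0.99), and Mzb1, an endoplasmic reticulum protein of B and plasma cells (r = 0.99). Their log2 fold changes were 1.05 for Fcer1g, 0.98 for Fyb, 1.51 for Lpxn, 1.69 for Itgb2 and 2.19 for Mzb1, with adjusted p from 0.331 to 0.535 in limma. The choice by r with Ctss over both genotypes favours a positive sign.

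Among the inhibitors too dim to be tested, Stfa2l1, a stefin A gene, read from 64.2 to 366 in KCASP1Tg mice and from 2.33 to 27.3 in WT mice without overlap. Cst7, or cystatin F, an inhibitor that lysosomes of leukocytes take up, read 531 in KCASP1Tg 4. No other KCASP1Tg mouse was above 97.6, and WT mice read from 37.6 to 54.9.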
